A study of Bos taurus with 7 samples.

Results

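SLC2A1, GAPDH and ACTB are 3 of the 27607 Ensembl gene rows counted by RNA sequencing in bovine blastocysts whose oocytes had matured in vitro with or without an inhibitor of energy metabolism. They were chosen by identifier: ENSBTAG00000009617 was taken as SLC2A1, ENSBTAG00000014731 as GAPDH and ENSBTAG00000026199 as ACTB. The count table does not pair identifiers with symbols, and 0 of its identifiers were matched in the reference table used here, so these names were not checked against an annotation. All 3 had enough counts to be among the 15134 genes tested. The 7 libraries came from 3 groups: 2 control libraries, 3 libraries from oocytes exposed to etomoxir, an inhibitor of fatty acid metabolism, and 2 from oocytes exposed to IO+DHEA, the combination that stood for inhibition of glucose metabolism. All groups were matured in vitro and were collected as blastocyst stage embryos, so the embryos were profiled at a later stage than that of exposure. The labels give no vehicle, dose or exposure time, do not say how many embryos were pooled in a library, and do not spell out IO. DHEA is the usual abbreviation of dehydroepiandrosterone, a steroid that inhibits glucose-6-phosphate dehydrogenase of the pentose phosphate pathway. Nothing in the labels ties replicate libraries to different cultures or animals. The p-values therefore measure the spread between these libraries, and that spread may be technical.

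SLC2A1 encodes GLUT1, a facilitative glucose transporter of the plasma membrane through which glucose enters the cells of the early embryo. GAPDH is the glycolytic enzyme that oxidises glyceraldehyde 3-phosphate and passes electrons to NAD+. The bovine embryo takes up more glucose and sends more of it through glycolysis as it compacts and forms a blastocyst, and both genes are often measured at that stage. ACTB encodes beta-actin of the cytoskeleton and is often taken, like GAPDH, as a reference transcript to which others are scaled. Lists of the other glucose transporters, of glycolytic and pentose phosphate enzymes, of further reference transcripts and of lineage markers had been drawn up, but without matched identifiers none of them could be read.

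The libraries held 84739741 to 122061453 counts, and 12990 to 15898 genes had at least 1 count. IO+DHEA library 1 had the fewest such genes and the lowest TMM scaling factor, 0.840, where the others were at 0.982 to 1.09. The members were counted deeply in every library. The smallest of their 21 counts was 11414, for SLC2A1 in IO+DHEA library 1, and its exact Poisson 95% interval ran from 11206 to 11625, which covers counting error only. Levels below are TMM-scaled CPM values (counts relative to the library total, which TMM corrects for the composition of the library), unless library totals are named.

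SLC2A1, the glucose transporter, was at a similar level in control and etomoxir blastocysts and fell in IO+DHEA blastocysts. The control libraries had 365 and 338 CPM. The etomoxir libraries had 346, 302 and 352 CPM, a range that reaches over the lower control. The IO+DHEA libraries had 150 and 108 CPM, and both lay below all 5 other libraries. Control averaged 351 ± 19.1 CPM (SD, n = 2), etomoxir 334 ± 27.3 CPM (SD, n = 3) and IO+DHEA 129 ± 29.4 CPM (SD, n = 2). On library totals without TMM scaling the IO+DHEA libraries were closer to each other, at 126 and 118 CPM, against 365 and 331 CPM in control. In these bulk samples, fewer cells of a type that expresses the gene and less RNA per cell cannot be told apart.

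**Figure D1:**
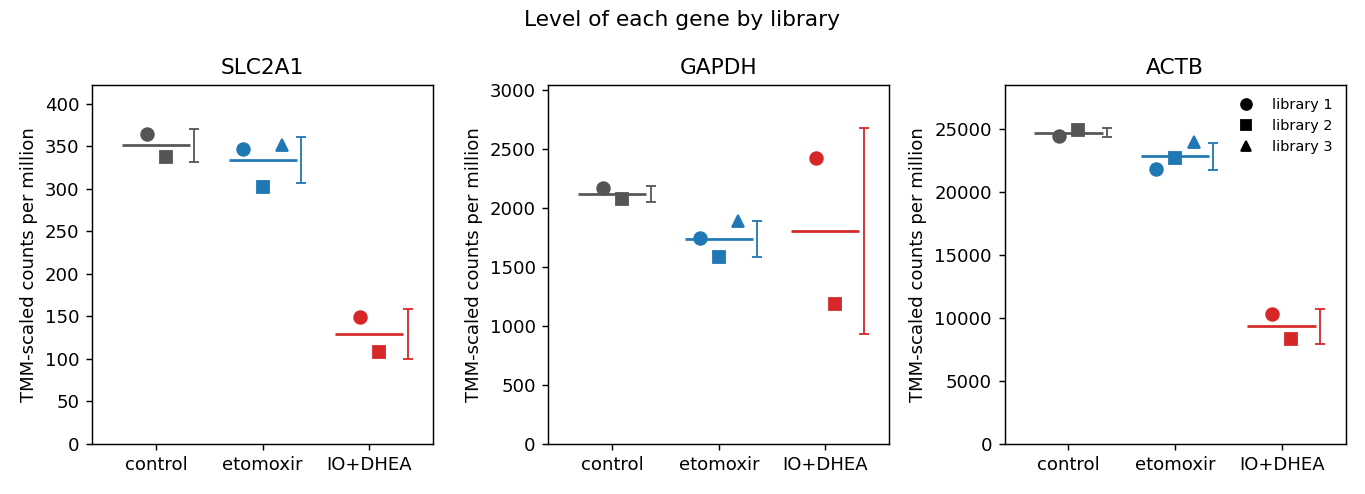
Level of SLC2A1, GAPDH and ACTB in TMM-scaled CPM (vertical axes, from 0) in each library of the 3 groups; horizontal lines are group means, bars are ± 1 SD, and marker shape gives the library number. Both IO+DHEA libraries lie below the other 5 for SLC2A1 and ACTB, while for GAPDH one lies above and one below all the others.

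GAPDH, the glycolytic enzyme, was the most variable of the 3 in IO+DHEA. The control libraries had 2169 and 2072 CPM. The etomoxir libraries had 1742, 1580 and 1891 CPM, and all of these lay below both controls. The IO+DHEA libraries had 2423 and 1186 CPM, the highest and the lowest value of the 7. Control averaged 2120 ± 68.2 CPM (SD, n = 2), etomoxir 1738 ± 155 CPM (SD, n = 3) and IO+DHEA 1805 ± 875 CPM (SD, n = 2). A mean for IO+DHEA therefore describes neither of its libraries. On library totals these libraries had 2035 and 1292 CPM, so IO+DHEA library 1 lay between the controls, which had 2173 and 2034 CPM on that scale.

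ACTB, the reference transcript, did not hold its level. It took more counts than any other gene in each control and each etomoxir library, and ranked 5th and 6th by count in the IO+DHEA libraries. The ranks are by raw count and not per length. The control libraries had 24465 and 24969 CPM and the etomoxir libraries 21851, 22735 and 23947 CPM. The IO+DHEA libraries had 10319 and 8341 CPM, below all 5 other libraries. The average was 24717 ± 356 CPM for control (SD, n = 2), 22844 ± 1052 CPM for etomoxir (SD, n = 3) and 9330 ± 1399 CPM for IO+DHEA (SD, n = 2). On library totals the IO+DHEA libraries had 8666 and 9081 CPM, against 24515 and 24513 CPM in control.

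IO+DHEA against control asked whether blastocysts from oocytes with inhibited glucose metabolism differed in these transcripts. SLC2A1 fell 2.73-fold and ACTB fell 2.65-fold, and GAPDH did not pass the test. By edgeR's quasi-likelihood test over all 7 libraries the log2 fold change of SLC2A1 was -1.45 ± 0.22 (SE), with a 95% interval from -1.97 to -0.92 and an adjusted p of 0.0184. That of ACTB was -1.41 ± 0.23 (SE), from -1.95 to -0.86, with an edgeR adjusted p of 0.0220. That of GAPDH was -0.23 ± 0.33 (SE) with an edgeR adjusted p of 0.720, and its interval, from -0.998 to 0.533, holds both a fall to 0.501 of the control level and a rise to 1.45 times that level. At an adjusted p under 0.05 in either direction, 6.94% of all genes tested were called in this comparison, and 4.8% were called lower. Among the 2994 genes with a mean over 50 CPM, to which all 3 members belong, 18.1% were called and 11.1% were called lower. Both IO+DHEA libraries lay below both controls for SLC2A1 and ACTB. Such a separation in either direction held for 49.6% of all genes tested, and with IO+DHEA lower for 28.4% of them and for 36.6% of the genes over 50 CPM, so it is common in this comparison.

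Set among the 2994 genes over 50 CPM, whose median log2 fold change was -0.04, the falls of SLC2A1 and ACTB were large. A lower log2 fold change than that of SLC2A1 was found for 179 of these genes, 5.98%, and a lower one than that of ACTB for 198, 6.61%. GAPDH lay near the middle, with 41.4% of these genes below it. In the 4 pairs of 1 IO+DHEA and 1 control library, the log2 difference ran from -1.75 to -1.17 for SLC2A1, from -1.58 to -1.25 for ACTB and from -0.87 to 0.23 for GAPDH. The median absolute difference of the abundant genes in these pairs was 0.54 to 0.74. Between the IO+DHEA libraries themselves this median was 0.51, against 0.21 between the controls and 0.16 to 0.21 between etomoxir libraries.

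**Figure D2:**
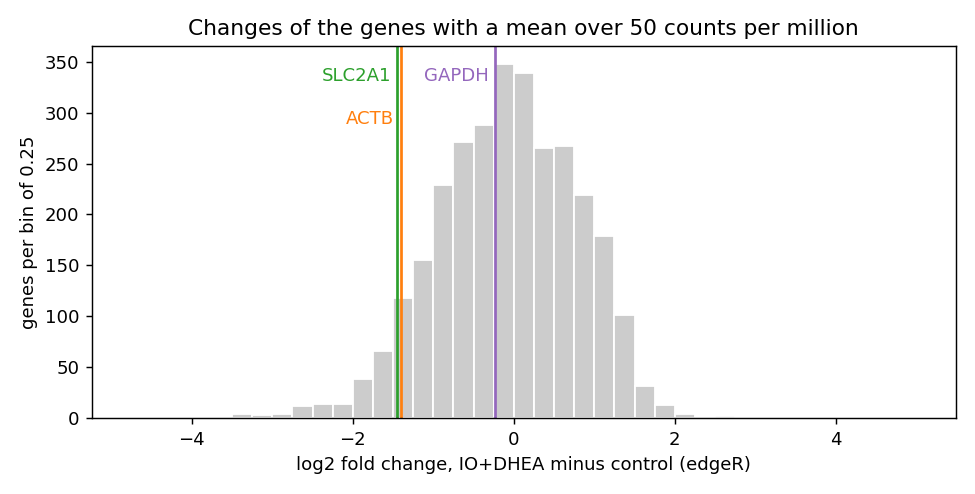
Number of genes (vertical axis, per bin of 0.25) by log2 fold change of IO+DHEA over control (horizontal axis) among the 2994 genes with a mean over 50 CPM. Coloured lines mark SLC2A1 at -1.45, ACTB at -1.41 and GAPDH at -0.23.

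The calls of SLC2A1 and ACTB were close to the threshold, while their falls kept their direction when a library was left out. The sizes moved most with the IO+DHEA library left out. Without library 2 of that group the log2 fold changes were -1.23 and -1.26, and without library 1 they were -1.67 and -1.53. The fall of SLC2A1 was not seen when libraries were scaled to ACTB, at a log2 fold change of -0.05. Without control library 1, control library 2 or etomoxir library 3 the edgeR adjusted p of SLC2A1 was 0.0696, 0.0803 and 0.0649, and its log2 fold change stayed between -1.67 and -1.23 over all 7 left-out libraries. For ACTB it was 0.0795, 0.104 and 0.0760 without those libraries and 0.0546 without etomoxir library 2, with a log2 fold change of -1.53 to -1.26 over the 7. Without IO+DHEA library 1, in which the fewest genes were detected, the falls were as large, with log2 fold changes of -1.67 and -1.53. The spread in that fit comes from the other groups alone. In an edgeR fit of control and IO+DHEA alone the adjusted p was 0.172 for SLC2A1 and 0.196 for ACTB. The adjusted p over all alternatives ran from 7.97e-07 with DESeq2 to 0.832 with scaling to ACTB for SLC2A1, and from 1.30e-09 with DESeq2 to 0.196 for ACTB. GAPDH turned with the IO+DHEA library: without library 1 its log2 fold change was -0.81 with an edgeR adjusted p of 0.0256, and without library 2 it was 0.19 with 0.431. In these fits IO+DHEA has 1 library, which is assumed to vary like the other groups, although the IO+DHEA libraries differed by 2.04-fold for GAPDH. The edgeR adjusted p of GAPDH was lowest with scaling to ACTB, at 0.0103, and ran up to 0.982 over its alternatives.

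**Figure D3:**
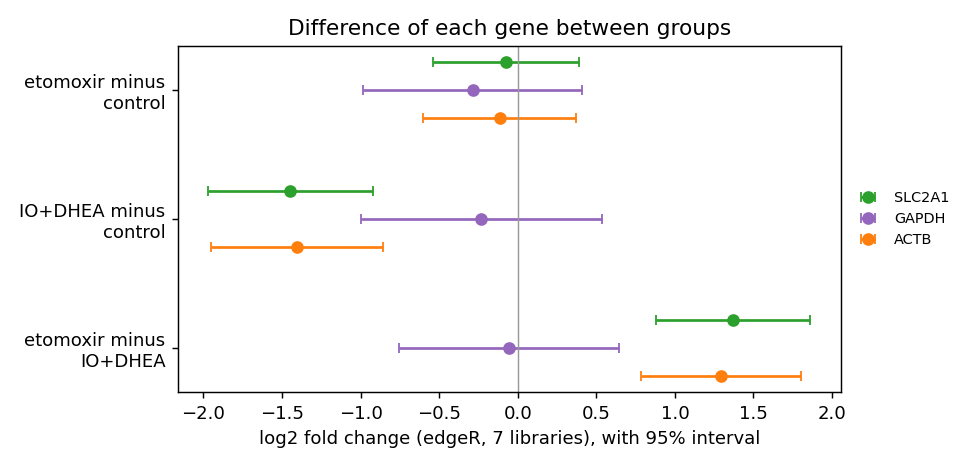
Log2 fold change of each gene (horizontal axis, edgeR fit of 7 libraries) in the 3 comparisons, with bars for the 95% interval. The intervals of SLC2A1 and ACTB exclude 0 in both comparisons with IO+DHEA and hold 0 for etomoxir minus control, and those of GAPDH hold 0 in all 3 comparisons.

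Etomoxir against control asked the same of inhibited fatty acid metabolism. None of the 3 genes passed the edgeR test, in a comparison in which 0.00661% of all genes tested, 1 gene, was called in either direction. An unadjusted edgeR p under 0.05 was reached by 514 genes, and DESeq2 called 56 genes and limma-voom 0. The log2 fold change of SLC2A1 was -0.07 ± 0.20 (SE), with a 95% interval from -0.54 to 0.39. That of ACTB was -0.11 ± 0.21 (SE), from -0.60 to 0.37. GAPDH had the largest difference, -0.29 ± 0.30 (SE), with an interval from -0.98 to 0.41. The edgeR adjusted p was 1 for each, and the unadjusted p was 0.721, 0.602 and 0.365 for SLC2A1, ACTB and GAPDH. All etomoxir libraries lay below both controls for GAPDH and for ACTB, but libraries were separated in this way, in either direction, for 25.3% of all genes tested. With etomoxir lower this held for 12.2% of all genes and 18.4% of those over 50 CPM. Of the genes over 50 CPM, 14.8% had a lower log2 fold change than GAPDH.

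Etomoxir against IO+DHEA set the treated groups against each other. SLC2A1 was 2.59-fold and ACTB 2.45-fold higher in etomoxir, with log2 fold changes of 1.37 ± 0.21 and 1.29 ± 0.22 (SE) and edgeR adjusted p of 0.0136 and 0.0160. GAPDH was at -0.05 ± 0.30 (SE), with a 95% interval from -0.75 to 0.64 and an edgeR adjusted p of 0.929. In this comparison 11.7% of all genes tested were called in either direction and 7.37% were called higher in etomoxir, as were 15.4% of the genes over 50 CPM. For SLC2A1 and ACTB all 3 etomoxir libraries lay above both IO+DHEA libraries. A separation in either direction held for 44.4% of all genes, and with etomoxir higher for 26.1% of all genes and 34.2% of those over 50 CPM. This comparison shares its IO+DHEA libraries with that of IO+DHEA against control. The call of SLC2A1 was lost without etomoxir library 3, with an edgeR adjusted p of 0.0690. That of ACTB was lost without etomoxir libraries 1, 2 or 3, at 0.0517, 0.0583 and 0.0863. For SLC2A1 the adjusted p over all alternatives ran from 2.93e-07 to 0.668, and for ACTB from 1.79e-09 to 0.187. GAPDH turned again with the IO+DHEA library, from a log2 fold change of 0.52 without library 1 to -0.48 without library 2. The spread in these fits again comes from the other groups alone. Over all alternatives the adjusted p of GAPDH ran from 0.00309, in edgeR with scaling to ACTB, to 1.

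The ratio of SLC2A1 to ACTB was nearly level across all 7 libraries, as both genes were lower in IO+DHEA by about the same factor. Such a ratio is formed within a library and does not depend on the scaling between libraries. As the counts were not divided by transcript length, it compares libraries and not the abundance of the genes. There were 1.49 and 1.35 SLC2A1 counts per 100 ACTB counts in the controls, 1.59, 1.33 and 1.47 in the etomoxir libraries, and 1.45 and 1.30 in the IO+DHEA libraries. The 3 groups overlapped. The log2 ratio of IO+DHEA differed from control by -0.05, where the pooled SD of the libraries was 0.11, with an exact two-sided permutation p of 0.667. Thus the 2.73-fold fall of SLC2A1 in CPM was not seen against ACTB.

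GAPDH counts were higher relative to both other genes in each IO+DHEA library. There were 8.86 and 8.30 GAPDH counts per 100 ACTB counts in the controls, 7.97, 6.95 and 7.89 in the etomoxir libraries, and 23.5 and 14.2 in the IO+DHEA libraries. Both IO+DHEA libraries lay above the other 5, and all etomoxir libraries lay below both controls. Single genes were separated in either direction for 49.6% of genes tested in IO+DHEA against control and 25.3% in etomoxir against control. For etomoxir against IO+DHEA this share was 44.4%, and shares over other ratios were not computed. IO+DHEA averaged 18.9 ± 6.55 (SD, n = 2), control 8.58 ± 0.400 (SD, n = 2) and etomoxir 7.61 ± 0.570 (SD, n = 3). On the log2 scale IO+DHEA was 1.09 above control, a 2.13-fold higher ratio, with an exact two-sided permutation p of 0.333. With TMM scaling, the log2 fold change in this comparison was -0.23 for GAPDH and -1.41 for ACTB, where the median of all genes tested was -0.01. GAPDH lay below that median, so this ratio shows no rise of GAPDH relative to other genes. Etomoxir was 0.18 below control on this scale, at a mean log2 ratio of -3.72 against -3.54, with an exact permutation p of 0.2.

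GAPDH to SLC2A1, the enzyme over the transporter, separated all 3 groups. The ratio was 5.95 and 6.14 GAPDH counts per SLC2A1 count in the controls, 5.03, 5.23 and 5.37 in the etomoxir libraries, and 16.2 and 11.0 in the IO+DHEA libraries. The etomoxir range was the lowest and the IO+DHEA range the highest, and no libraries overlapped. Single genes separated the groups in either direction for 49.6% of genes tested in IO+DHEA against control. This share was 25.3% in etomoxir against control and 44.4% in etomoxir against IO+DHEA. Shares over other ratios, or of genes that separate all 3 groups, were not computed. With TMM scaling, the log2 fold change in IO+DHEA against control was -0.23 for GAPDH and -1.45 for SLC2A1. The median of all genes tested was -0.01. GAPDH lay below that median, so the ratio shows no rise of GAPDH relative to other genes. IO+DHEA was 2.21-fold above control and 2.56-fold above etomoxir, and etomoxir was 1.16-fold below control. The exact two-sided permutation p was 0.333, 0.2 and 0.2. This test takes 2 times the smaller tail. Under that rule these are the smallest values that 2 against 2 and 2 against 3 libraries allow, so no ratio could pass a threshold of 0.05. Over the 9 ratio tests the lowest Benjamini-Hochberg adjusted permutation p was 0.450.

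**Figure D4:**
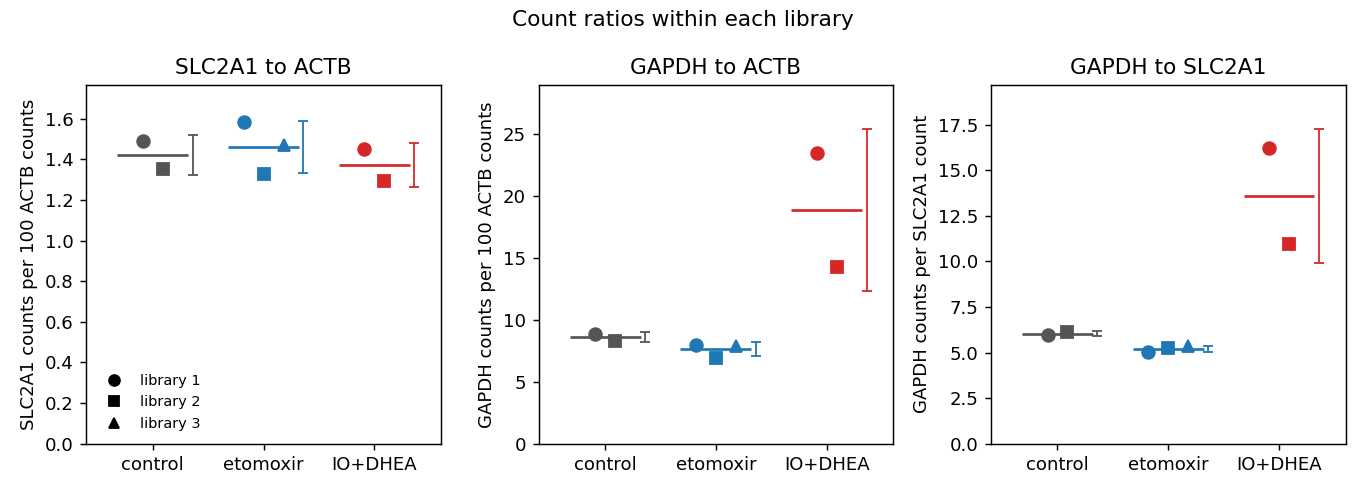
Count ratios within each library (vertical axes, from 0): SLC2A1 and GAPDH counts per 100 ACTB counts, and GAPDH counts per SLC2A1 count, by group; lines are group means and bars ± 1 SD. SLC2A1 to ACTB lies between 1.30 and 1.59 in all libraries, while both ratios with GAPDH as the numerator are highest in the IO+DHEA libraries.

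Scaling to ACTB or to GAPDH changed which of these genes were called, and the library-wide scalings did not. With the ACTB count of each library as the scale, SLC2A1 had a log2 fold change of -0.05 in IO+DHEA against control, with an edgeR adjusted p of 0.832. On the same scale GAPDH was at 1.14 (log2), which is 2.20-fold higher, with an edgeR adjusted p of 0.0103. This scale moved all genes together: over all genes tested the median log2 change went from -0.01 to 1.41, and 5674 genes were called, 5485 of them higher. GAPDH lay below that median, so its call on this scale is not a rise relative to other genes. With the GAPDH count as the scale, SLC2A1 was at -1.12 and ACTB at -1.05, with edgeR adjusted p of 0.0898 and 0.0862, and 0 genes were called, with 2875 at an unadjusted p under 0.05. With TMM, median-of-ratios or upper quartile factors, or library totals alone, SLC2A1 was 2.36 to 2.86-fold lower in IO+DHEA and ACTB 2.29 to 2.76-fold lower, and both were called by edgeR under each. Upper quartile factors moved the median of all genes to 0.19. TMM factors computed without the 3 genes gave log2 fold changes of -1.45, -0.23 and -1.41 for SLC2A1, GAPDH and ACTB, as with them.

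**Figure D5:**
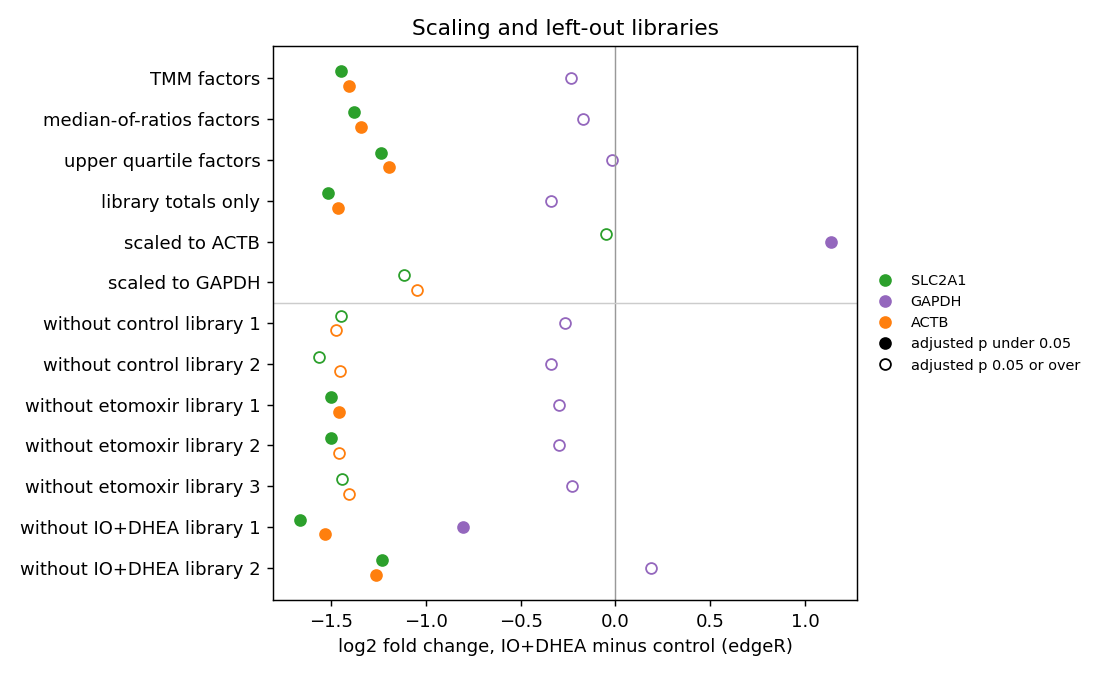
Log2 fold change of IO+DHEA over control (horizontal axis, edgeR) for each gene under 6 ways of scaling (above the grey line) and without each library (below it); filled points have an adjusted p under 0.05, and a gene scaled to itself has no point. SLC2A1 is at -0.05 and GAPDH at 1.14 when scaled to ACTB, and SLC2A1 stays between -1.67 and -1.23 when 1 library is left out.

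The spread between replicate libraries differed between the genes and groups. In control, the libraries differed by 0.11 for SLC2A1, 0.07 for GAPDH and 0.03 for ACTB on the log2 scale. In etomoxir the highest library was above the lowest by 0.22, 0.26 and 0.13. In IO+DHEA the TMM-scaled libraries differed by 0.47 for SLC2A1, 0.31 for ACTB and 1.03, which is 2.04-fold, for GAPDH. Library 1 was the higher for all 3 genes on that scale. On library totals, IO+DHEA libraries 1 and 2 had 126 and 118 CPM for SLC2A1, 8666 and 9081 CPM for ACTB and 2035 and 1292 CPM for GAPDH. The sizes of these differences thus depend on the scaling, and for ACTB so does their order. With TMM scaling, 15.1% of the 2994 abundant genes differed more than GAPDH between the IO+DHEA libraries, 53.4% more than SLC2A1 and 68.8% more than ACTB. GAPDH thus lay among the more variable abundant genes in that group, and in control 83.4% of the abundant genes differed more than GAPDH did.

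SLC2A1 and ACTB had similar patterns over the libraries. Likeness was measured as the root mean square difference of log2 CPM, with each gene centred on its own mean over the 7 libraries, among genes of at least 1 CPM. ACTB differed from SLC2A1 by 0.097 and was the 4th nearest of 10705 genes, where the median gene differed by 0.810. GAPDH differed from SLC2A1 by 0.601 and ranked 3055th. The 7 libraries share their groups and their depths, so these distances are a description and have no test. The gene nearest to SLC2A1 was ENSBTAG00000015663, at a difference of 0.056. It had 491 and 501 CPM in control, 473, 424 and 487 CPM in etomoxir and 219 and 143 CPM in IO+DHEA, with a log2 fold change of -1.45 for IO+DHEA against control. The gene nearest to GAPDH was ENSBTAG00000047441, at a difference of 0.079. It had 45.6 and 46.7 CPM in control, 39.4, 34.0 and 43.4 CPM in etomoxir and 48.5 and 28.2 CPM in IO+DHEA. On this TMM scale its IO+DHEA libraries lay on either side of all the others, as those of GAPDH did. Both nearest genes were chosen for their likeness over these libraries, so a shared pattern follows from the choice. The files name neither gene.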

How the data were processed

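Per the labels' protocols, RNA of bovine blastocysts was amplified with a SMARTer ultra-low input kit and made into libraries with Nextera XT. The deposited table holds raw counts per Ensembl gene ID. The build was ARS-UCD1.2, and reads were processed with featureCounts 2.0.1, STAR 2.7.9a and cutadapt 1.18, per the submitters' processing notes. How strand and multi-mapping reads were treated is not stated in the labels, so reads shared with near-identical copies, such as other actins or processed pseudogenes, are uncertain. Groups came from the treatment label and library numbers from the titles.

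Counts were analysed in R 4.3.3 with edgeR 4.0.16. Genes passed filterByExpr (minimum count 10, minimum total 15), were scaled by TMM and entered 1 quasi-likelihood fit of 7 libraries with 3 group terms, which assumes the same spread per gene in all groups. Tests were two-sided, with Benjamini-Hochberg adjustment over all 15134 genes tested in each comparison and a threshold of 0.05. Standard errors and 95% intervals were derived from the test statistic. Log2 CPM used a prior count of 2. Log2 ratios of raw counts were compared by exact permutation tests. Alternatives used DESeq2 1.42.0 and limma 3.58.1, and figures matplotlib 3.10.9.

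The genes and lists were chosen with earlier results of these data known. Always named were the 3 genes, and for SLC2A1 and GAPDH the nearest gene by pattern. Members of the lists were to be named where identifiers could be matched, and none could. Scaling to ACTB or to GAPDH, TMM without the 3 genes and counts divided by 2 were added after the data were seen. No sequences or coordinates are printed, since no table of them was used here.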

Additional observations from a re-analysis of the deposited data

How the results depend on the processing

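The falls of SLC2A1 and ACTB in IO+DHEA kept their direction under every alternative run. Against control, their calls were lost in fits of the compared groups alone (log2 fold change -1.50 and -1.45). Scaling to GAPDH (-1.12 and -1.05) and, for SLC2A1, to ACTB (-0.050) also lost them. So did the replicate block given below and leaving out some single libraries, as given above. For etomoxir against IO+DHEA both were called in the compared groups alone, with edgeR adjusted p of 0.0311 and 0.0353. Scaled to GAPDH the edgeR adjusted p there was 0.0461 and 0.0446. Over left-out libraries the log2 fold change for IO+DHEA against control ran from -1.67 to -1.23 for SLC2A1, from -0.81 to 0.19 for GAPDH and from -1.53 to -1.26 for ACTB. For etomoxir against IO+DHEA it ran from 1.16 to 1.60, from -0.48 to 0.52 and from 1.15 to 1.43. Scaled to ACTB, GAPDH turned to 1.14 for IO+DHEA against control and was called at -1.31 for etomoxir against IO+DHEA, where SLC2A1 was no longer called at 0.091. On this scale the median log2 change of all genes tested was 1.41 and -1.22 in these comparisons, in that order. For etomoxir against IO+DHEA, GAPDH was at 0.11 with library totals only and 0.039 with limma-voom. For etomoxir against control, SLC2A1 turned to 0.040 scaled to ACTB and 0.21 scaled to GAPDH, and ACTB to 0.18 scaled to GAPDH. A gene scaled to itself gives no value. The causes were not tested.

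The number of genes called for etomoxir against control was 1, and it was 56 with DESeq2, 0 with limma-voom, 0 scaled to GAPDH and 0 to 1 over left-out libraries. For IO+DHEA against control it was 1050, and it was 1606 with the stricter filter of 5 CPM in 2 libraries, 2935 with DESeq2, 0 in the compared groups alone, 5674 scaled to ACTB, 0 scaled to GAPDH and 47 to 3707 over left-out libraries. Each of the 7 libraries moved this number by over 1.5 times when left out, to 72 and 47 genes for the controls, to 332, 271 and 110 for etomoxir and to 2191 and 3707 for IO+DHEA, in library order. For etomoxir against IO+DHEA it was 1769, and it was 3507 with DESeq2, 932 in the compared groups alone, 5787 scaled to ACTB, 276 scaled to GAPDH and 35 to 4530 over left-out libraries, and each library but IO+DHEA library 1, without which it was 2321, moved it by over 1.5 times. Median-of-ratios factors called 410 genes higher and 670 lower in IO+DHEA against control and upper quartile factors 588 and 514, against 323 and 727 with TMM.

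The ratio of SLC2A1 to ACTB turned with single libraries, from -0.032 to 0.11 (log2) for etomoxir against control and from -0.13 to 0.030 for IO+DHEA against control. The ratios with GAPDH kept their direction without each library in turn.

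With the library number as a replicate block, 0 genes were called in each comparison, with 217, 2603 and 2633 genes at an unadjusted p under 0.05 for etomoxir against control, IO+DHEA against control and etomoxir against IO+DHEA. The log2 fold change of SLC2A1 and ACTB under the block was -1.46 and -1.41 for IO+DHEA against control, with edgeR adjusted p of 0.126 and 0.170, and 1.34 and 1.26 for etomoxir against IO+DHEA, with 0.143 and 0.187. Deviations of same-numbered libraries from their group means, over 7610 genes, had a correlation of -0.047 for control and IO+DHEA, of -0.090 and 0.14 for control and etomoxir (numbers 1 and 2) and of -0.19 and -0.24 for etomoxir and IO+DHEA. The numbers did not deviate together throughout, and the labels do not say that a number marks a shared culture. In a group of 2 libraries the deviations mirror each other, so these correlations cannot decide whether same-numbered libraries shared a culture.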
